A study of Mus musculus with 2 samples.

Results

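The surface genes Cd34, Cd200, Cd24a, Ly6a, Ly6c1 and Ly6e, several of which are used to sort progenitor-type cells, were followed across the endothelial and mesenchymal cells of chimeric mouse lungs. They were 6 of the 32285 genes in each count matrix, were taken by symbol, and each symbol had 1 gene identifier. The list was chosen by values seen earlier in these same libraries, with the differences of Cd34, Cd200 and Cd24a between the libraries in general capillary cells known, so the levels are given as a description and without a test. The recipients were C57Bl mice that had received a suspension of TdTom lung cells, cells that carry the red fluorescent protein tdTomato, 6 months before harvest. The lungs of 3 such chimeras were pooled, and cells without the leukocyte antigen CD45 were sorted. Cells with tdTomato gave the donor library and cells without it the recipient library, both on the 10x Genomics droplet platform. Both libraries therefore came from the same 3 mice, and the recipient library holds the cells that the host lung still had. The strain of the donors, the ages and any conditioning of the recipients are not given in the sources used here. With 1 library per group there was no replicate, no p-value was computed, and every interval in brackets is a 95% interval that covers counting error only.

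CD34 is a sialomucin of the plasma membrane of blood progenitor cells and of many endothelial cells and fibroblasts. CD200 is an immunoglobulin-type glycoprotein that restrains myeloid cells through its receptor, and CD24 is a small, heavily glycosylated protein held in the membrane by a lipid (GPI) anchor. Ly6a (Sca-1), Ly6c1 and Ly6e belong to the Ly6 family of small GPI-anchored proteins; Sca-1 is a standard marker of mouse blood stem cells, and several members of the family are raised by interferon. The lung capillary bed is built from general capillary cells, which renew the endothelium, and aerocytes (Car4-high cells), which are specialised for gas exchange.

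In the mm10 genome, with gene models from GENCODE M21, Cd34 (ENSMUSG00000016494) lies on the plus strand at chr1:194938819-194961279. Cd200 (ENSMUSG00000022661) lies on the minus strand at chr16:45382135-45409053, and Cd24a (ENSMUSG00000047139) on the plus strand at chr10:43578284-43584265. The Ly6 members share 1 neighbourhood of chromosome 15: Ly6e (ENSMUSG00000022587) at chr15:74955051-74959905 on the plus strand, Ly6a (ENSMUSG00000075602) at chr15:74994877-74998031 and Ly6c1 (ENSMUSG00000079018) at chr15:75044018-75048830, both on the minus strand. Ly6 genes are near-identical copies in part, so reads could be split or lost between them, and how such reads were counted is not given in the sources used here. Ly6c2, the closest relative of Ly6c1, was at 0.652 CPM in donor and 0.441 CPM in recipient general capillary cells (CPM, the counts of a gene summed over a cell group and scaled to a common total) and at 1.24 and 1.96 CPM in aerocytes.

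Promoters of 3 of the 6 members matched by symbol in the RefSeq table (GRCm38.p6), and the 250 bases before the start are shown for Cd34 and Cd200, whose levels differed between the libraries in general capillary cells, and for Ly6c1, the only Ly6 member with an entry. The Cd34 promoter is chr1:194938571-194938820 (plus strand), that of Cd200 chr16:45409054-45409303 (minus strand) and that of Ly6c1, at the more upstream of its 2 listed starts, chr15:75048838-75049087 (minus strand). Capitals mark matches on either strand to TATAAA, the box near the start of some promoters, to GGAAG, the core bound by ETS factors, to the interferon-stimulated response element, and to TTCNNNGAA, the interferon-gamma activated site.
Cd34: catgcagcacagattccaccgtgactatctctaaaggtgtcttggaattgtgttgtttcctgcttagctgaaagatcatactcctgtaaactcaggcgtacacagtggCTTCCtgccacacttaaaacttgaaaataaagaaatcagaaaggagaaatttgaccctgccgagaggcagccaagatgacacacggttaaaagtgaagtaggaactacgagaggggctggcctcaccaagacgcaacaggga
Cd200: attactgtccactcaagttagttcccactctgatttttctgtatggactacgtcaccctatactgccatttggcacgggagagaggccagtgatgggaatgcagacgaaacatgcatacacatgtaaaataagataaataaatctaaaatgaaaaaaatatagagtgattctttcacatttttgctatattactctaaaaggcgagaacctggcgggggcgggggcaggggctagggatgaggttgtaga
Ly6c1: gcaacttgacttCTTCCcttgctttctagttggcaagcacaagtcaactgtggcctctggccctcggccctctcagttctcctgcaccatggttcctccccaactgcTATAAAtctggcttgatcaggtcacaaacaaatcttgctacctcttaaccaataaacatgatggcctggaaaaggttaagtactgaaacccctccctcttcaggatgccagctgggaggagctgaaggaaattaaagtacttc
Cd34 held 1 GGAAG match, on the opposite strand and 142 bases before the start. The Ly6c1 window shown held 1 TATAAA match, 143 bases before the start, and 1 GGAAG match on the opposite strand, 238 bases before it. The window of the other listed Ly6c1 start, not shown, held 4 GGAAG matches, 33 to 125 bases before that start, and no TATAAA match. The Cd200 window held none of the 4 motifs, and neither interferon motif was found in any of these windows. Of 32851 promoters of the same length, 64.1% held GGAAG, 12.4% TATAAA, 7.02% the interferon-gamma site and 2.98% the interferon-stimulated element. Such matches are a description of the letters in this window.

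Cell types were assigned by counted transcripts (UMIs, unique molecular identifiers) of marker genes, none of which was a member. The donor library held 6319 barcodes with 37997269 UMIs (median 5433 per barcode) and the recipient library 3784 barcodes with 26201315 UMIs (median 6056.5). The 2 libraries shared 816 barcodes, and the copy was more than 5-fold smaller in the donor library for 728 of them and in the recipient library for 48. The smaller copy was left out, and with the other filters 4578 donor and 3199 recipient cells remained. Endothelial cells were 4389 of the donor cells (95.9%) and 1256 of the recipient cells (39.3%), and mesenchymal cells 60 and 1622. General capillary cells numbered 2436 in the donor and 387 in the recipient library, aerocytes 1519 and 612, and venous cells 90 and 81. These 3 types had at least 50 cells in both libraries and were compared. Arterial cells numbered 7 and 9, lymphatic cells 4 and 72, and 333 of the donor and 95 of the recipient endothelial cells were left without a type. The labelled types carried their own markers: the general capillary list (Gpihbp1, Plvap, Aplnr, Kit) summed to 6794.5 and 6714.3 CPM in general capillary cells against 267 and 170 CPM in aerocytes. The leukocyte markers summed to at most 2.55 CPM in the compared types of either library, and the mesenchymal markers in general capillary cells to 16.2 CPM in the donor and 147 CPM in the recipient library. The part of free RNA in a level was estimated at 1.18% to 2.39% of the UMIs of these types. The amount came from mesenchymal and surfactant genes. Its profile was that of all barcodes of the library, each with at least 500 UMIs, and not of empty droplets.

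In general capillary cells 3 of the 6 genes differed more than 1.5-fold between the libraries and the Ly6 genes differed by 1.05-fold at most. Cd34 was at 66.5 CPM [62.2 to 70.9] in the donor and 130 CPM [115 to 145] in the recipient library, 1.95-fold higher in recipient cells [1.71 to 2.23]. Cd200 was at 538 CPM [526 to 551] in the donor and 278 CPM [257 to 301] in the recipient library, 1.93-fold higher in donor cells [1.78 to 2.10]. Cd24a was at 180 CPM [173 to 187] and 33.5 CPM [26.4 to 42.0], 5.38-fold higher in donor cells [4.28 to 6.85]. Donor general capillary cells thus had less Cd34 and more Cd200 and Cd24a. Ly6a, at 3510.0 and 3486.9 CPM, had a log2 ratio of donor over recipient of 0.01 [-0.025 to 0.044]. Ly6e, at 2914.8 and 2921.7 CPM, had one of -0.003 [-0.041 to 0.034], and Ly6c1, at 1130.4 and 1074.8 CPM, one of 0.073 [0.011 to 0.135]. A gene was counted as different when its levels were 1.5-fold apart or more and the interval of the ratio left out equality. By that rule 2 members were higher and 1 lower in donor cells, beside 9.27% of the 11925 genes measured in this type; because the list was picked with this contrast in view, its count says nothing further. The median log2 ratio was 0.041 over the members and -0.001 over all genes measured.

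**Figure D1:**
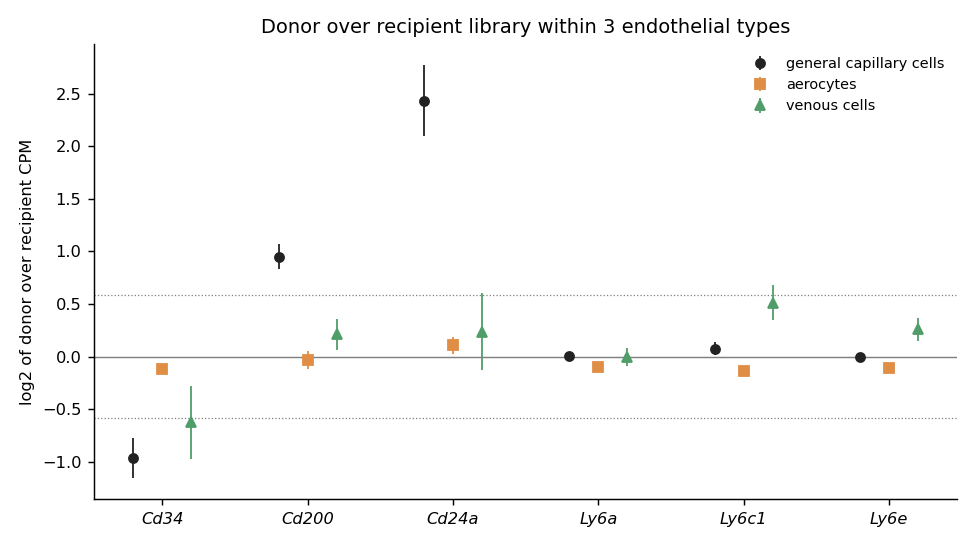
Log2 ratio of donor over recipient CPM for each gene in general capillary cells (circles), aerocytes (squares) and venous cells (triangles), with 95% counting intervals; dotted lines mark 1.5-fold. Cd34, Cd200 and Cd24a lie beyond the lines in general capillary cells at -0.965, 0.951 and 2.43, while all 6 aerocyte points lie between -0.139 and 0.106.

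The same 3 differences were seen in the share of cells with at least 1 UMI. Depth was similar, at a median of 5351 UMIs in donor and 5496 in recipient general capillary cells. Cd34 was detected in 19.9% of the donor and 32.0% of the recipient cells, and in 9.48% and 17.1% when each cell was thinned to 2000 UMIs. Cd200 was detected in 85.1% and 65.4%, or 59.3% and 37.8% after thinning. Cd24a was detected in 41.2% and 10.1%, or 22.8% and 4.79% after thinning. Ly6a and Ly6e were detected in at least 99.7% of the cells of both libraries. The recipient Cd24a value rested on 76 UMIs in 39 cells, of which the 3 highest cells gave 31.6%; leaving out the 3 highest cells of each library widened the log2 ratio from 2.43 to 2.93.

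**Figure D2:**
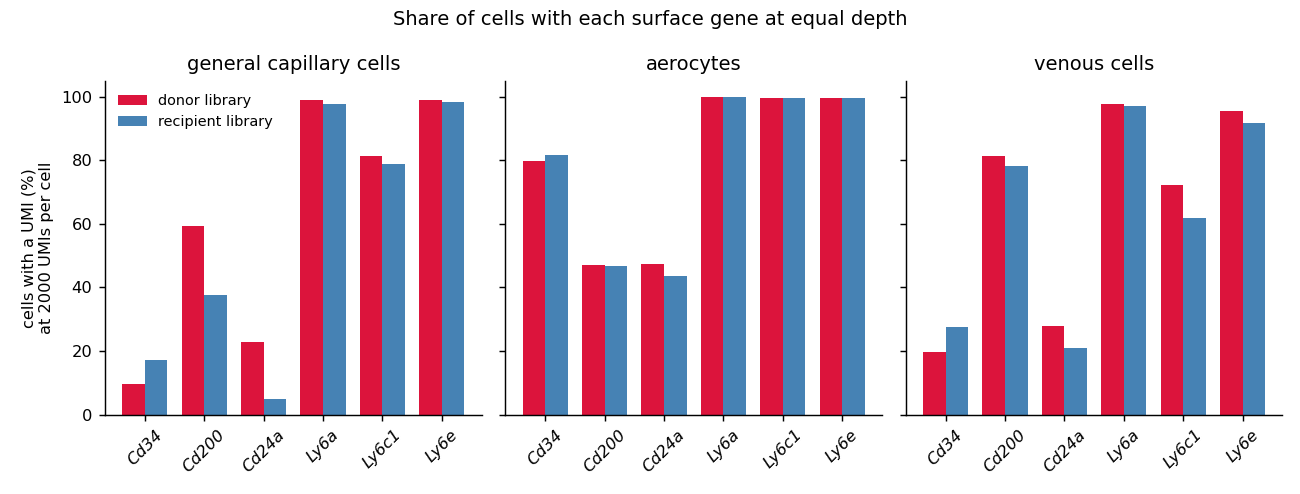
Share of cells with at least 1 UMI of each gene after thinning every cell to 2000 UMIs, in 3 endothelial types, as bars from 0 for the donor (red) and recipient (blue) library. In general capillary cells the bars part for Cd34 (9.48% and 17.1%), Cd200 (59.3% and 37.8%) and Cd24a (22.8% and 4.79%), and in aerocytes they are near each other for every gene.

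Pericytes and alveolar type 1 cells gave the level of these genes in cells that were not endothelial. Cd24a was at 22.4 CPM in donor pericytes (6 UMIs in 49 cells) and 4.69 CPM in recipient pericytes, detected in 8.16% and 2.46% of cells at median depths of 5254 and 5039 UMIs. Both general capillary levels, 180 and 33.5 CPM, lay above the pericyte level of their own library with intervals that did not overlap. Cd24a was thus higher in the donor library in pericytes too, 4.77-fold [1.49 to 13.4], a low level whose source was not tested. Cd200 was at 22.4 and 5.41 CPM in pericytes and Cd34 at 18.6 and 6.49 CPM. In the 42 donor and 182 recipient alveolar type 1 cells Cd24a was at 14.8 and 6.49 CPM, Cd200 at 18.5 and 1.91 CPM and Cd34 at 3.69 and 4.96 CPM. These were shallow in the donor and deep in the recipient library, at medians of 2386 and 14371.5 UMIs. Cd34 had a log2 ratio of -0.426 [-5.836 to 2.309] there, on 1 and 13 UMIs, and one of 1.521 [-0.264 to 3.004] in pericytes, both with intervals that held 0. Ly6a was 4.38-fold higher in donor alveolar type 1 cells [2.98 to 6.34], at 159 and 36.2 CPM, on 43 and 95 UMIs. The endothelial markers summed to 465 CPM in donor and 120 CPM in recipient alveolar type 1 cells. Their part in the Ly6a difference was not tested. Thinned to 2000 UMIs, 3.50% of donor and 1.33% of recipient pericytes had a Cd34 UMI, 4.92% and 1.08% a Cd200 UMI and 4.16% and 1.03% a Cd24a UMI. With the free RNA estimate subtracted, the log2 ratios in general capillary cells were -1.11 for Cd34, 0.94 for Cd200 and 2.48 for Cd24a. That estimate used a profile of barcodes with cells, so free RNA itself was not measured. The aerocyte markers summed to 323 CPM in donor and 159 CPM in recipient general capillary cells. Aerocyte markers made up under 10% of the capillary marker UMIs in 2195 donor and 402 recipient capillary cells. Among them Cd24a was 4.75-fold higher in donor cells [3.84 to 5.94] and Cd34 1.95-fold higher in recipient cells [1.69 to 2.23]. The part of aerocyte RNA in these differences was not tested.

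In aerocytes none of the 6 members was 1.5-fold apart, beside 4.47% of the 11503 genes measured there. The median log2 ratio was -0.1 over the members and -0.019 over those genes. Cd34 was at 940 CPM [924 to 956] in donor and 1018.6 CPM [990 to 1048] in recipient aerocytes, 1.08-fold [1.05 to 1.12] above the donor level in recipient cells. Cd200 was at 332 and 339 CPM, with a log2 ratio of -0.03 [-0.113 to 0.054]. Cd24a, at 404 and 375 CPM, was 1.08-fold [1.02 to 1.14] above the recipient level in donor cells. The Ly6 genes were all slightly higher in recipient aerocytes: Ly6a at 8504.5 and 9085.8 CPM, Ly6c1 at 4255.6 and 4685.9 CPM and Ly6e at 3509.7 and 3771.6 CPM, by 1.07-fold, 1.10-fold and 1.07-fold. Intervals this narrow reflect the 116654 and 41808 Ly6a UMIs counted and not the spread between mice, which could not be measured.

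In venous cells 1 of the 6 members passed the same rule, beside 7.81% of 7799 genes measured, with medians of 0.223 and 0.044. Cd34 was at 154 CPM [128 to 183] in donor and 237 CPM [202 to 276] in recipient venous cells, 1.54-fold higher in the recipient library [1.21 to 1.96]; its 3 highest cells held 27.0% and 27.3% of the UMIs. It missed the 1.5-fold limit in 2 of 10 alternatives, at a log2 ratio of -0.49 with a stricter gate and -0.54 without either copy of the shared barcodes. Ly6c1, at 993 and 695 CPM, was 1.43-fold higher in donor cells [1.27 to 1.60], short of the limit. Cd200 was at 1084.1 and 936 CPM (1.16-fold [1.04 to 1.28]), Ly6e at 2069.3 and 1727.1 CPM (1.20-fold [1.11 to 1.29]), and Cd24a at 190 and 162 CPM, with a log2 ratio of 0.236 [-0.125 to 0.602]. Ly6a was at 3063.1 and 3070.6 CPM. Cd34 was thus lower in the donor library in all 3 types, though only slightly in aerocytes.

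Across types, the aerocyte was the cell with most Cd34, Cd24a, Ly6a, Ly6c1 and Ly6e among the 3 compared types of each library. In the donor library Cd34 was 14.1-fold higher in aerocytes than in general capillary cells [13.2 to 15.1], and in the recipient library 7.85-fold [6.98 to 8.86]. Ly6c1 was 3.76-fold and 4.36-fold higher and Ly6a 2.42-fold and 2.61-fold. Ly6e differed least, at 1.20-fold and 1.29-fold. Cd24a was 2.24-fold higher in donor aerocytes than in donor general capillary cells [2.13 to 2.35], and 11.2-fold in the recipient library [8.88 to 14.3]. Cd200 went in opposite directions: in the donor library it was 1.62-fold lower in aerocytes [1.56 to 1.68], and in the recipient library it was higher, 1.22-fold [1.11 to 1.34]. Of the 6 members, 4 were higher and 1 lower in donor aerocytes by the 1.5-fold rule, and 4 were higher and none lower in recipient aerocytes. The background was 40.7% of 12420 genes in the donor and 34.7% of 10768 genes in the recipient library. The members' median log2 ratios were 1.22 and 1.753, against -0.112 and -0.039 over all genes; the members were chosen with such levels known, and nothing is read from it.

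Of the 3 types, venous cells had the most Cd200, 2.01-fold above general capillary cells in the donor library [1.88 to 2.16] and 3.36-fold in the recipient library [3.01 to 3.76]. All 90 donor and 79 of the 81 recipient venous cells had a Cd200 UMI. Cd34 was also higher in venous than in general capillary cells, 2.31-fold and 1.82-fold. Ly6e was lower, 1.41-fold and 1.69-fold, and Ly6a 1.15-fold and 1.14-fold lower. Ly6c1 was 1.14-fold lower in the donor and 1.55-fold lower in the recipient library [1.40 to 1.71]. Venous Cd24a was close to the general capillary level in the donor library, at 190 and 180 CPM, and 4.82-fold above it in the recipient library [3.57 to 6.55].

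**Figure D3:**
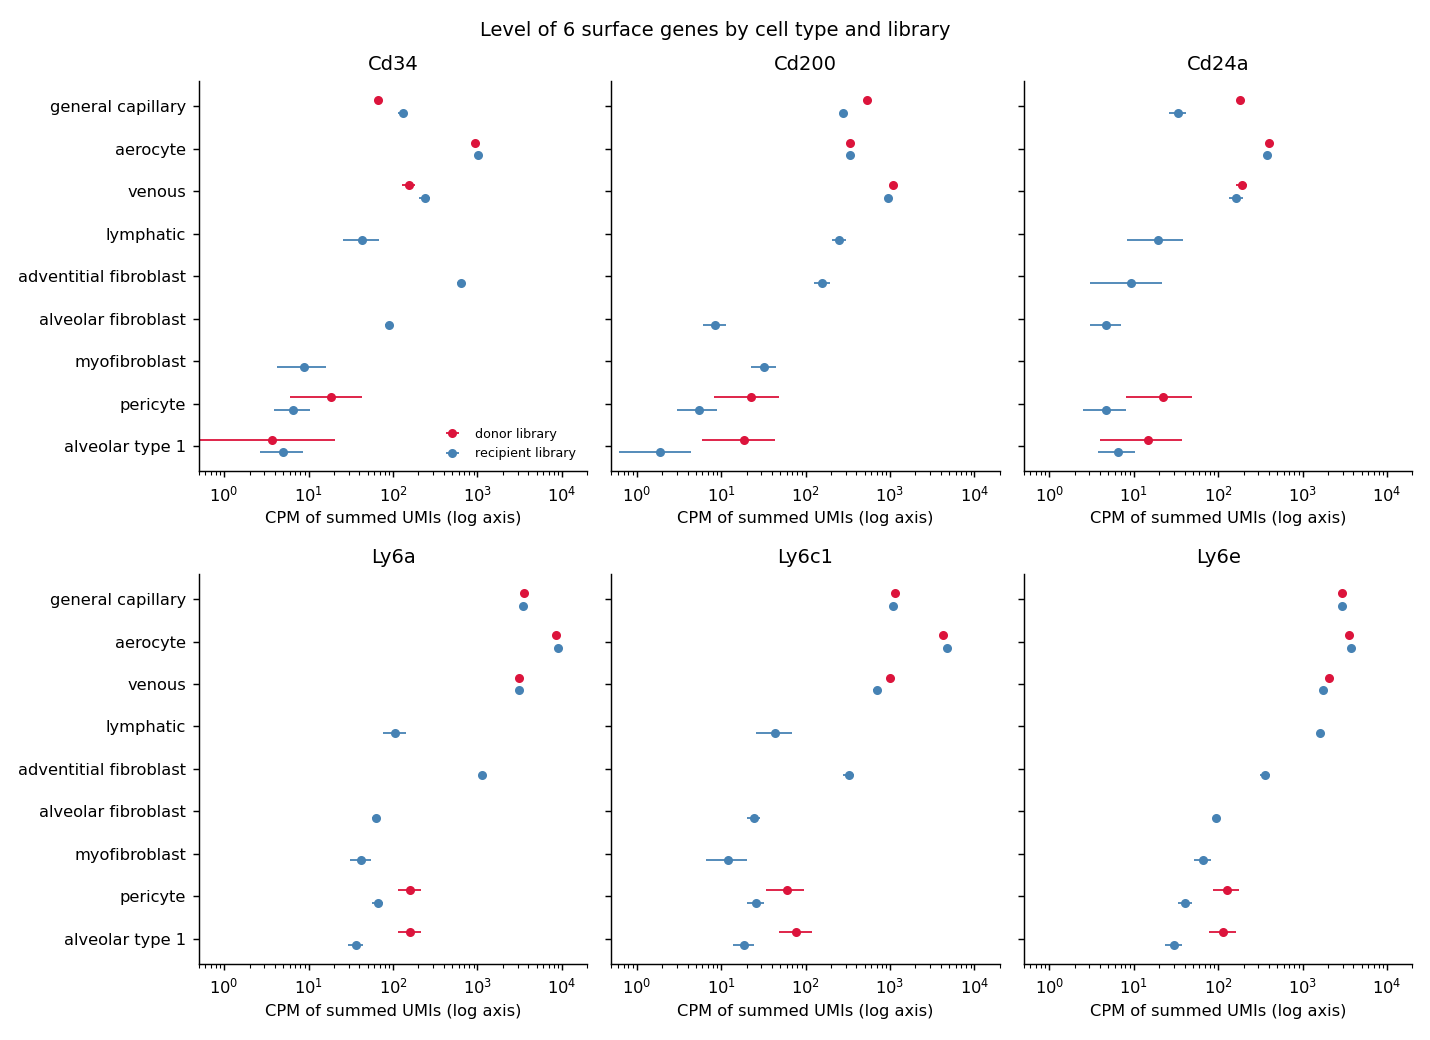
CPM of summed UMIs (log axis) of each gene in cell types with over 40 cells in a library, donor red and recipient blue, with exact 95% Poisson intervals; the 0 CPM of Cd24a in myofibroblasts has no point. All 6 genes sit lowest in pericytes, myofibroblasts or alveolar type 1 cells, and adventitial fibroblasts stand out among mesenchymal cells for Cd34 at 630 CPM and Ly6a at 1123 CPM.

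Lymphatic endothelium, with 72 recipient cells, had low levels of most of the set. Ly6a was at 106 CPM [76.8 to 142] and Ly6c1 at 43.3 CPM [25.6 to 68.4], against 66.3 CPM [57.1 to 76.7] and 25.6 CPM in recipient pericytes. The intervals of Ly6a did not overlap and those of Ly6c1 did, but 3 lymphatic cells held 72.7% of the 44 Ly6a UMIs and 72.2% of the 18 Ly6c1 UMIs. Cd34 was at 43.3 CPM and Cd24a at 19.2 CPM, on 18 and 8 UMIs. Ly6e, by contrast, stood at 1615 CPM [1495 to 1742] with a UMI in 98.6% of lymphatic cells, and Cd200 at 250 CPM [204 to 303] in 66.7%. The 4 donor lymphatic cells were too few to describe. The few arterial cells had Cd34 at 359 CPM [191 to 613] in the donor and 499 CPM [341 to 704] in the recipient library, and Ly6c1 at 1490.1 and 1403.3 CPM.

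Mesenchymal cells, nearly all from the recipient library, divided by type. The 52 adventitial fibroblasts, which sheathe vessels and airways and are the usual CD34-positive, Sca-1-positive stromal cells, had Cd34 at 630 CPM [565 to 701] and Ly6a at 1123 CPM [1035 to 1216]. They also had Ly6c1 at 322 CPM [276 to 374], Ly6e at 359.5 CPM [311 to 414] and Cd200 at 156 CPM [124 to 193]. Cd34 was detected in 86.5% of them and Ly6a in 96.2%. The 3 highest adventitial fibroblasts held 40.2% of the Ly6c1 UMIs, and 19.1% to 27.8% for Cd34, Cd200, Ly6a and Ly6e. Cd24a was at 9.27 CPM [3.01 to 21.6] there, on 5 UMIs, which overlapped the 4.69 CPM of pericytes [2.50 to 8.02]. The 731 alveolar fibroblasts had Cd34 at 89.0 CPM [81.0 to 97.6], in 36.1% of cells, against 6.49 CPM and 3.40% in the 529 recipient pericytes. Their Ly6a, at 63.3 CPM, did not exceed the 66.3 CPM of pericytes. The 175 myofibroblasts had Cd200 at 32.3 CPM [22.7 to 44.5], above pericytes at 5.41 CPM, and no Cd24a UMI, for which the exact binomial interval reaches 2.09% of cells. The 49 donor pericytes had higher values than recipient pericytes for the Ly6 genes (Ly6a 160 and 66.3 CPM). The endothelial markers summed to 1214.5 and 861 CPM in donor and recipient pericytes. Most of each sum was Eng, at 693 and 649 CPM, so the sums were less far apart than the other endothelial markers. The part of endothelial RNA in the Ly6 differences was not tested.

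Epithelial cells held 2 of the genes at high levels. Cd24a, a marker of ciliated cells, was at 2244.9 CPM in the 4 donor and 1517.4 CPM in the 4 recipient ciliated cells. Ly6e was at 1109.9 CPM [963 to 1272] in the 7 donor and 1182.4 CPM [1081 to 1291] in the 24 recipient alveolar type 2 cells. Cd200 was at 189 and 134 CPM in alveolar type 2 cells, above its level in alveolar type 1 cells of the same library.

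Capillary cells were then ordered by the share of aerocyte markers among their capillary marker UMIs. In the donor library Cd34 was at 61.2 CPM where that share was under 10%, 95.6 CPM from 10% to 33%, 433 CPM from 33% to 67%, 878 CPM from 67% to 90% and 946 CPM above 90%. In the recipient library it was at 119, 246, 983, 698 and 1035.6 CPM over the same steps, with the middle value from 5 cells of which 3 held 91.4% of the UMIs. Donor Ly6a over the same steps was at 3493.2, 3554.6, 5729.5, 7950.6 and 8566.1 CPM, and donor Ly6c1 at 1113.0, 1287.1, 2745.8, 3788.1 and 4305.6 CPM. Cells at the middle of the range were few, 22 in the donor and 5 in the recipient library, and their summed Ly6a and Ly6c1 levels were intermediate. Of these UMIs, 3 donor cells held 43.45% for Ly6a and 39.6% for Ly6c1, and 3 recipient cells held 67.8% and 75.3%. The mesenchymal markers summed to 214 CPM in the donor and 898 CPM in the recipient cells of this middle step, against 15.5 and 116 CPM in aerocytes, and their part in these levels was not tested. Donor Cd200 stayed at 511 to 543 CPM up to 67% and was at 361 and 329 CPM beyond it, where the recipient library had 362 and 339 CPM. Recipient Cd200 was at 281 to 305 CPM over the 3 lower steps. Donor and recipient levels of Cd200 and Cd24a were thus apart in the lowest step and near each other at the aerocyte end. Recipient Cd24a was at 37.2 CPM in the lowest step and 158 CPM in the next, where 22 cells gave a ratio to the donor level of 1.49-fold, with a log2 interval of -0.099 to 1.34. That recipient level rested on 18 UMIs, 94.4% of them in 3 cells, and 18.2% of the recipient against 48.2% of the donor cells of this step had a Cd24a UMI.

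**Figure D4:**
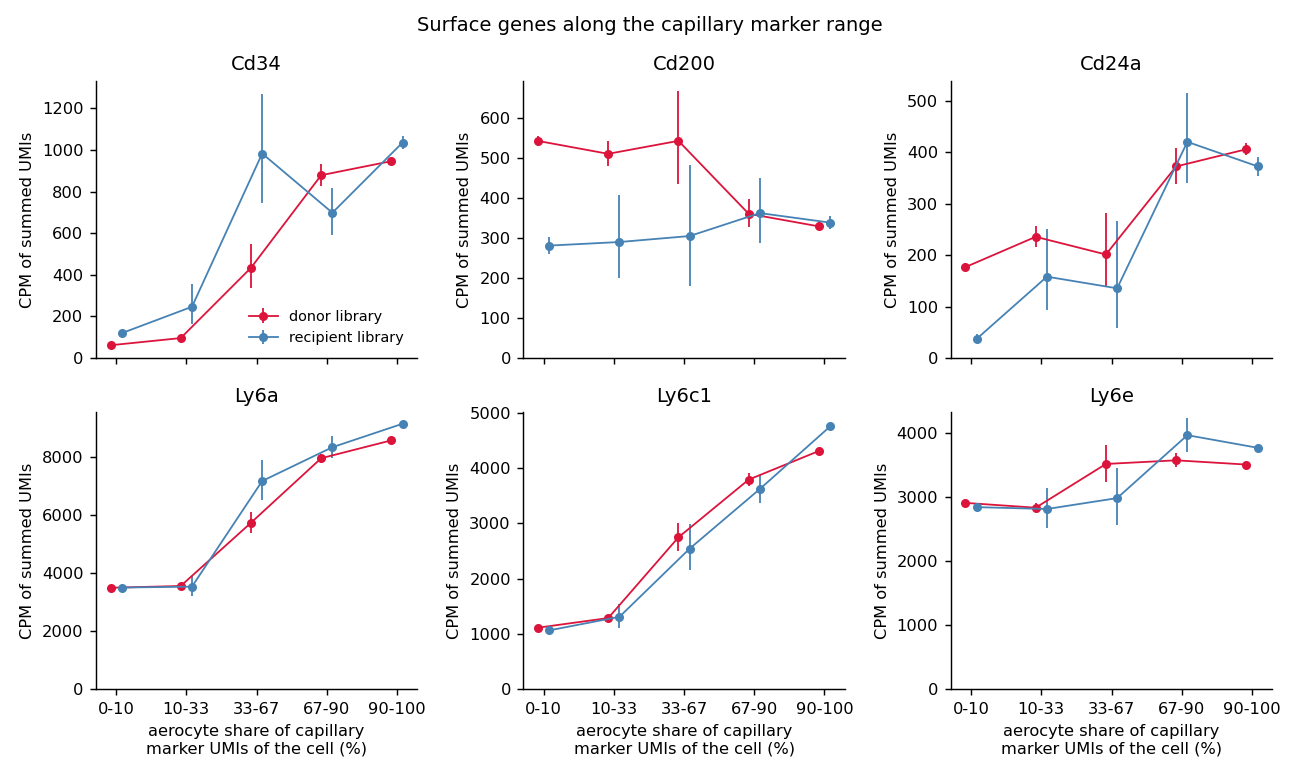
CPM of summed UMIs of each gene (linear axes from 0, one scale per panel) in 5 bins of capillary cells by the aerocyte share of capillary marker UMIs, donor red and recipient blue, with exact 95% Poisson intervals. Cd34, Ly6a and Ly6c1 are highest at the aerocyte end in both libraries, while Cd200 and Cd24a differ between libraries at the general capillary end (543 and 281 CPM, 177 and 37.2 CPM) and converge at the other.

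General capillary cells were also split by state markers (2 or more UMIs against none). Cells with Glp1r, the receptor of the incretin GLP-1, had less Cd34 than cells without it: 57.7 and 100.6 CPM in the donor library and 103 and 314 CPM in the recipient library, 1.74-fold [1.49 to 2.03] and 3.05-fold [2.32 to 3.97] lower. Cd200 was lower in Glp1r cells as well, 1.24-fold and 1.73-fold. Cd24a was 1.40-fold higher in donor Glp1r cells [1.24 to 1.57]; the recipient value, 37.2 against 22.7 CPM, had a log2 interval of -0.488 to 2.21. Glp1r cells made up 63.0% of donor and 76.2% of recipient general capillary cells. The differences between the libraries had the same direction on both sides of the split. Cd200 was at 505 CPM in donor and 250 CPM in recipient cells with Glp1r. Without Glp1r it was at 626 and 432 CPM, less than 1.5-fold apart. Cd34 was 1.79-fold higher in recipient cells with Glp1r and 3.13-fold in those without, and Cd24a was 5.20-fold and 6.09-fold higher in donor cells. The recipient Cd24a level without Glp1r rested on 6 UMIs in 2 of 48 cells. Of the 83 Cd34 UMIs in these 48 cells, 3 cells held 43.4%.

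Cells with 2 or more UMIs of Hey1 and Sema3g together, genes of arterial endothelium, had 2.24-fold less Cd34 in the donor library [1.86 to 2.67] and 2.34-fold less in the recipient library [1.81 to 3.03] than cells with none. Their Ly6a was 1.09-fold and 1.20-fold higher. Their Cd24a was 1.33-fold lower in the donor library. In the recipient library it was 1.89-fold lower [1.12 to 3.12], which rested on 26 UMIs in the cells with none, 76.9% of them in 3 cells, while the share of cells with a UMI was 10.9% and 10.5%. Cells with Esm1 or Inhbb, of which Esm1 marks tip cells of growing vessels, had more Cd200: 624 and 512 CPM in the donor library and 460 and 242 CPM in the recipient library, 1.22-fold [1.15 to 1.29] and 1.90-fold [1.56 to 2.31] higher. The same cells had less Cd24a, 107 and 196 CPM in the donor library (1.84-fold lower [1.60 to 2.11]) and 6.62 and 42.6 CPM in the recipient library, where the 53 cells with Esm1 or Inhbb held Cd24a in 3.77%. Cd34 in the donor cells of this split was at 86.9 and 61.5 CPM, a log2 ratio of 0.498 [0.254 to 0.737], and in the recipient ones at 162 and 130 CPM, a ratio of 0.32 [-0.157 to 0.771]. Cd200 and Cd24a, both higher in donor general capillary cells, thus went opposite ways with this state within each library.

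The interferon-induced genes Isg15, Ifit1, Ifit3, Rsad2, Oasl2 and Irf7 were used for a further split, 5 or more UMIs against at most 1. General capillary cells high in them had more Ly6a, 3905.7 and 3240.4 CPM in the donor library and 4137.9 and 2916 CPM in the recipient library, log2 ratios of 0.269 [0.239 to 0.3] and 0.505 [0.426 to 0.584]. Ly6e was higher in them too, by 0.224 [0.191 to 0.258] and 0.295 [0.209 to 0.381] on the log2 scale, whereas Ly6c1 differed by 0.074 and 0.234. In aerocytes the Ly6a ratios were 0.104 and 0.163 and those of Ly6e 0.167 and 0.074. High cells were 27.8% of donor and 22.2% of recipient general capillary cells, and they were deeper, at medians of 5824 and 6140.5 UMIs against 4970.5 and 5152. None of these state differences in Ly6 genes reached 1.5-fold. Aerocytes with Serpina3k or Serpina3m had more Cd24a, by 0.302 [0.22 to 0.384] in the donor and 0.377 [0.224 to 0.531] in the recipient library, and more of each Ly6 gene, by 0.057 to 0.153. Aerocytes with Il1a, which encodes an inflammatory cytokine, had more Cd24a as well, by 0.167 and 0.253, but less of each Ly6 gene, at log2 ratios of -0.089 and -0.075 for Ly6a, -0.045 and -0.154 for Ly6c1 and -0.089 and -0.107 for Ly6e.

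**Figure D5:**
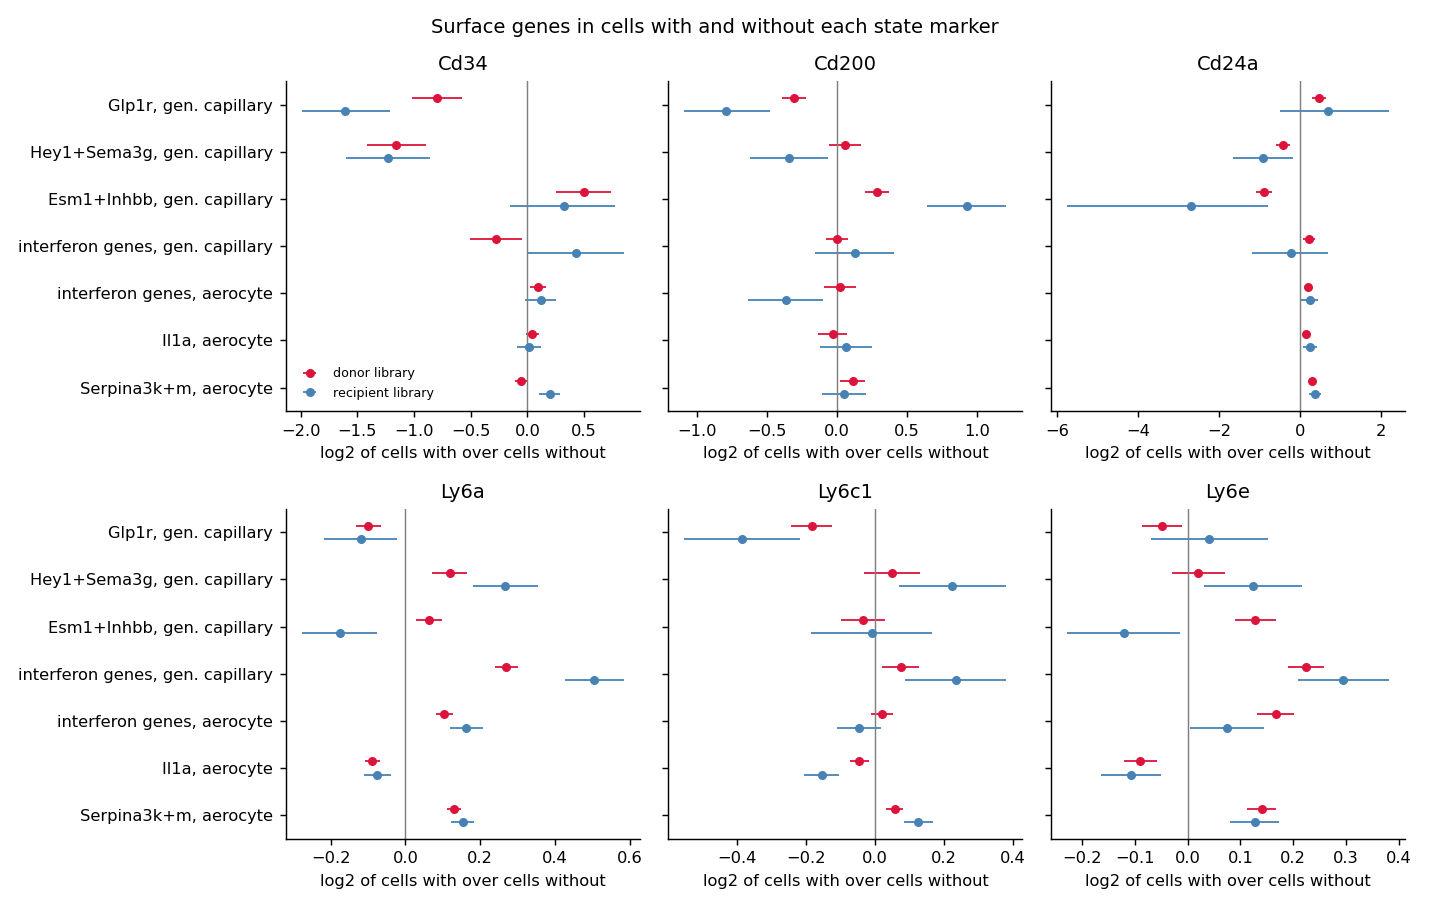
Log2 ratio of each gene in cells with 2 or more UMIs of a state marker over cells with none. The interferon rows set 5 or more UMIs against at most 1. General capillary cells fill the upper 4 rows and aerocytes the lower 3, donor red and recipient blue. Bars are 95% counting intervals, and each panel has its own horizontal scale. Cd34 lies left of 0 for Glp1r and for Hey1 with Sema3g in both libraries, and Ly6a and Ly6e lie right of 0 for interferon genes in both types.

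Read the other way, general capillary cells with 2 or more Cd34 UMIs (159 donor, 53 recipient) had less of the arterial markers than cells without Cd34, 404 and 653 CPM in the donor and 279 and 627 CPM in the recipient library. They had less of the general capillary markers as well, 5648.3 and 6978.8 CPM and 4887 and 7204.5 CPM. The proliferation genes Mki67, Top2a and Birc5 summed to 399 CPM in recipient cells with Cd34 and 3.98 CPM in those without. The same cells had more Esm1 and Inhbb in the donor library, 337 and 169 CPM, and less in the recipient library, 87.5 and 198 CPM. The recipient log2 ratio was -1.182 [-1.756 to -0.653], on 32 UMIs in the cells with Cd34. When Esm1 and Inhbb made the split, as above, the recipient Cd34 interval held equality and gave no direction. Aerocyte markers summed to 349 and 316 CPM in donor cells with and without Cd34, a log2 ratio of 0.142 [-0.013 to 0.293], and to 189 and 139 CPM in recipient cells, 0.437 [0.023 to 0.835], and their part in these differences was not tested. The level of proliferation genes rested on few cells: 3 of 387 recipient and 3 of 2436 donor general capillary cells had 2 or more such UMIs, and over the cells with none, a restriction chosen after the data were seen, Cd34 was 1.89-fold higher in the recipient library [1.65 to 2.17]. Donor cells with Cd24a had less Esm1 and Inhbb, 95.1 and 236 CPM, and more of the venous markers, 974 and 805 CPM, and their Cd34 was at 46.7 CPM against 79.2 CPM in cells without Cd24a. Cd24a was at 186 CPM in donor cells with 2 or more Cd200 UMIs and 169 CPM in donor cells with none. In the recipient library the values were 25.7 CPM in the 148 cells with Cd200 and 51.1 CPM in the 134 without. All 387 recipient cells together held 76 Cd24a UMIs, 31.6% of them in 3 cells. No interval was computed for these Cd200 splits, so no direction is read from them.

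Related genes were read from lists that were drawn up with earlier results of these libraries known. Of the 14 other progenitor-type surface genes listed, 11 were measured in general capillary cells; none was higher and 3 were lower in the donor library, beside 9.27% of all genes measured there (402 higher and 703 lower), with a median log2 ratio of -0.027 beside -0.001 over all genes. Those 3 were Vcam1, an adhesion molecule for leukocytes, at 19.8 and 102 CPM, Procr, the endothelial protein C receptor, at 8.12 and 21.2 CPM, and Alcam, at 1.01 and 6.18 CPM; alveolar fibroblasts of the recipient library held Vcam1 at 598 CPM and Alcam at 208 CPM, and their part in these differences was not tested. The integrin genes Itga6 (236 and 191 CPM) and Itgb1 (478 and 487 CPM), the tetraspanin Cd9 (1132.9 and 1226.6 CPM), Mcam (468 and 373 CPM) and Cd93 (1630.3 and 1520.9 CPM) were less than 1.5-fold apart. In aerocytes 2 of 9 measured genes of the list were higher and 2 lower in the donor library, beside 4.47% of all genes measured there. The higher ones were Cd93 (28.3 and 8.04 CPM) and Itga6 (6.12 and 1.96 CPM), and the lower ones Vcam1 (4.08 and 8.48 CPM) and Alcam (0.948 and 4.78 CPM). General capillary markers summed to 267 CPM in donor and 170 CPM in recipient aerocytes, and their part in the Cd93 and Itga6 values was not tested. In venous cells 1 of 10 was lower, Vcam1, at 1006 and 1962.3 CPM, beside 7.81% of all genes; Bst1, a gene of the venous marker list, was counted among the 10.

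Of 20 further Ly6-type genes, 6 were measured in general capillary cells and 1 was lower in the donor library, Ly6k, at 0.725 and 5.74 CPM, beside the same 9.27% of all genes. Plaur, the urokinase receptor, was at 171 and 195 CPM in general capillary cells and at 494 and 462 CPM in aerocytes, and Cd59a, a complement inhibitor, at 21.5 and 22.9 CPM in the former. Among venous cells 1 of 4 measured was lower in the donor library, Cd59a, at 46.4 and 85.3 CPM, beside 7.81% of all genes. Recipient alveolar fibroblasts held Cd59a at 114 CPM, and their part in this difference was not tested. Podxl, the family member of Cd34, was at 365 and 293 CPM in general capillary cells and at 461 and 541 CPM in aerocytes, and neither it nor Podxl2 was 1.5-fold apart. Of the 7 receptors and partners of CD200 and CD24, 1 was measured in general capillary cells and none in aerocytes. Selp, the P-selectin gene, was the only 1 measured in venous cells. It was lower in donor ones, at 278 and 629 CPM, beside 7.81% of all genes. Of the 4 GPI-anchored immune-type genes, 2 were measured in general capillary cells, 1 higher and 1 lower in the donor library, beside 9.27% of all genes. Bst2, an interferon-induced gene, was higher, at 1150 and 724 CPM, while Cd55, which inhibits complement, was lower, at 2.61 and 9.27 CPM. In venous cells 1 of 2 was lower, Cd55, at 6.10 and 26.5 CPM, beside 7.81% of all genes. Recipient adventitial fibroblasts held Cd55 at 133 CPM, and their part in these differences was not tested.

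Likeness of pattern was read over 12 profiles of a type in a library, each with at least 50 cells, as Pearson's r of log2(CPM + 10), among 6247 genes. Profiles of 1 library share that library's free RNA and depth, so the values are a description. Ly6a and Ly6c1 were each other's nearest gene, at r = 0.992, followed for both by Fmo1 and Trib2 (0.971 and 0.959 for Ly6a, 0.975 and 0.969 for Ly6c1). Ly6e was most like Fgd5 (0.986), Gngt2 (0.983) and St3gal6 (0.981). Cd24a was most like Stmn2 (0.97), Ankrd33b (0.962) and Abi3 (0.946), and Cd200 most like H2-T22 (0.976), Fzd4 (0.951) and Aqp1 (0.941). Cd34 had the least close neighbours, Phlda3 (0.945), Ces2g (0.911) and Vat1 (0.902). Among the members themselves the lowest values were those of Cd34 with Cd200 (0.644) and with Cd24a (0.699).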

How the data were processed

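Single-cell RNA was counted in 1 donor and 1 recipient library. The deposited files hold raw UMI counts per gene and barcode, per the file headers, made with Cell Ranger 4.0.0 on mm10, per the file headers and the submitters' processing notes; the labels' protocols name version 3.0.1. No tdTomato feature was among the genes, and a further dataset named in the labels was not used here.

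From these counts, barcodes beyond 3 scaled median absolute deviations of their library were left out: donor limits were 691 to 7888 genes, 36143 UMIs and 6.68% mitochondrial UMIs, recipient limits 802 to 7423 genes, 31040 UMIs and 7.35%. The highest Scrublet doublet scores (scanpy 1.11.5) were removed at a rate of 0.8% per 1000 barcodes, 319 donor and 115 recipient barcodes, since the automatic call marked 2 and 135. Of barcodes in both libraries the copy with fewer UMIs was left out. The remaining 4578 and 3199 cells had medians of 6089 and 6385 UMIs. A lineage needed 10 marker UMIs and 5 times every other lineage, and a type 5 UMIs and 2 times every other type; these limits were set after the files were seen.

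Levels are CPM of UMIs summed over cells with exact Poisson intervals, ratios have exact conditional 95% intervals (scipy 1.17.1), and shares of cells have exact binomial ones. All cover counting error only. Genes measured had 20 UMIs over both groups and 1 in each. State splits used 2 or more UMIs against none, and the interferon split 5 or more against at most 1. The ratio and call steps were tested on simulated data. The genes named beside the members were the 3 most alike by Pearson's r and the listed genes of 5 related lists. The members, lists and tests were chosen with earlier results of these data known. Promoters came from RefSeq.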

Additional observations from a re-analysis of the deposited data

Results flagged for a closer look

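With 1 library per group none of these differences was tested. Of 54 contrasts between cell groups looked at in both libraries and 18 pairs of types, 8 went one way in one library or type and the opposite way in the other, each with counting intervals that left out 0.

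Cd200 was lower in aerocytes than in general capillary cells in the donor library (log2 ratio -0.697) and higher in the recipient library (0.284), a difference of -0.98. Donor aerocytes and recipient aerocytes had nearly the same Cd200, 332 and 339 CPM.

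Cd34 was lower in donor general capillary cells high in interferon-induced genes (-0.276) and higher in recipient ones (0.429), a difference of -0.7. In aerocytes with Serpina3k or Serpina3m, Cd34 was at -0.059 in the donor and 0.197 in the recipient library, a difference of -0.26. In general capillary cells with Esm1 or Inhbb, Ly6a was at 0.064 and -0.176, a difference of 0.24, and Ly6e at 0.128 and -0.12, a difference of 0.25.

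The remaining ones set the donor over recipient ratio of one type against another. For Ly6c1 it was -0.139 in aerocytes and 0.073 in general capillary cells, a difference of -0.21, and 0.514 in venous cells, a difference of -0.65 from the aerocyte value. For Ly6e it was -0.104 in aerocytes and 0.261 in venous cells, a difference of -0.36.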

How the results depend on the processing

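In general capillary cells the log2 ratios of donor over recipient ranged over 11 alternatives from -1.11 to -0.76 for Cd34, from 0.93 to 1.02 for Cd200 and from 2.35 to 2.93 for Cd24a, all beyond 1.5-fold. The alternatives changed the cell filters, doublets, shared barcodes, gates, free RNA, averaging, scaling and the highest cells; leaving out cells with proliferation UMIs was added after seeing the data. Cd34 moved from -0.96 to -0.76 with a stricter gate, and Cd24a from 2.43 to 2.93 without the 3 highest cells. In aerocytes Ly6a moved from -0.10 to -0.12 with doublets kept and to -0.08 when scaled by the median ratio, and Ly6c1 from -0.14 to -0.16 with doublets kept. The share of aerocyte genes past 1.5-fold was 2.25% with a minimum of 100 UMIs against 4.47%, 208 of 9260 genes. Venous Cd34 ranged from -0.49 to -0.78 and Ly6c1 from 0.45 to 0.71, past 1.5-fold in 8 and 2 of 10 alternatives. The cause of these shifts was not tested. Ly6a in general capillary cells (-0.02 to 0.04) and in venous cells (-0.05 to 0.07), and Ly6e in general capillary cells (-0.02 to 0.02), lay on both sides of 0. Shares of cells with a UMI depended on depth: 33 of 36 moved without thinning and 33 at 1000 UMIs. No paired analysis was possible because each group had 1 library. The number of mice per library limits every comparison, since the spread between mice could not be measured.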
